A study of Homo sapiens with 32 samples.

Results

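EGR3, FOS and BTG2 are immediate early genes, and their transcripts were followed in human breast tumor xenografts during 14 days of tamoxifen. The 3 genes were taken by symbol from the gene list of the study, where they hold 5 of 333 named probes, out of 9912 probes on the array. FOS has 3 probes (121976_A, 246190_A and 361655_A, listed from bright to dim), EGR3 has 26568_A and BTG2 has 213136_A. All 5 were kept, since no filter on low values was used. The named probes are those that the study selected for change on these same arrays, so a call of one of the 3 genes is not independent evidence that it changed.

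Immediate early genes are switched on soon after a growth factor or a hormone reaches the cell, before any new protein has to be made, largely through the ERK kinases. FOS encodes the partner of JUN in the AP-1 transcription factor, EGR3 encodes a zinc-finger transcription factor that estrogen induces in breast cancer cells, and BTG2 encodes an antiproliferative protein that brings a deadenylase to mRNAs and is a target of p53. Estradiol induces FOS within the early response of estrogen receptor-positive breast cells, and tamoxifen competes with estradiol for that receptor.

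Tumors of ZR-75-1, an estrogen receptor-positive human breast cancer line, were grown in female nu/nu mice, which lack T cells but keep other host cells, and every mouse carried an estradiol (E2) pellet. The tamoxifen groups carried a second pellet, with 2.5 mg of tamoxifen for release during 60 days, and were taken at day 1 (4 tumors of 2 mice), day 2 (2 tumors of 2 mice), day 4 (4 tumors of 3 mice), day 7 (4 tumors of 3 mice) and day 14 (2 tumors of 2 mice). The reference for all of them was 1 pool of E2-only xenografts, into which no tumor of day 7 or 14 went. Each tumor was hybridized in both dye orientations, which makes 32 arrays for 16 tumors. Each value is a log2 ratio of the tamoxifen-treated tumor over the pool, averaged over the orientations, so 1 unit is a doubling and a positive value means higher with tamoxifen. A probe was called at a limma adjusted p under 0.05, over all 9912 probes, in a fit that gave each day 1 mean and treated the mouse as a random effect. The mouse correlation was 1 value for all probes, 0.0206, so tumors of 1 mouse counted almost as separate samples. With 1 mean per mouse, 26 probes were called at day 1, against 653. Day 1 calls of genes other than the members were not checked gene by gene in that way.

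The scanner columns do not name their dyes. The sign was taken from the value table of the authors and from the lowering of the estrogen-induced TFF1 and TFF3 that the study describes, and the direction is therefore likely and not settled. If they instead number the channels as the labels do, every sign given here turns. The dye-swap array labelled day 4 replicate 4 was left out because, probe by probe, its uncorrected log ratios repeated those of another array, the forward one of day 4 replicate 2 (r = 0.980), so day 4 replicate 3 has 1 orientation. Over all probes the orientations of a tumor correlated weakly (mean r = 0.055), and over the 333 named probes more closely (mean r = 0.67). The pool is 1 sample, so the spread between E2-only tumors is not in any test, and at days 7 and 14 tamoxifen and time cannot be told apart. Of 20 markers of luminal epithelium, 9 had a named probe, and their median signal over background across arrays lay between 5.06 and 205.

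EGR3 was called on more days than FOS or BTG2 and was lower with tamoxifen than in the pool in every one of the 16 tumors. At day 1 its log2 ratios were -0.14, -0.82, -0.55 and -1.03 in replicates 1 to 4, at day 2 -0.61 and -0.76, and at day 4 -0.97, -0.76, -0.73 and -0.21 in replicates 1, 2, 3 and 5. At day 7 they were -0.16, -1.13, -0.71 and -0.86, and at day 14 -1.65 and -1.98. The day 14 tumors lay below all 14 tumors of the earlier days, and the earlier days overlapped each other. Day 1 averaged -0.64 ± 0.38 (SD, n = 4), day 2 -0.68 ± 0.11 (n = 2), day 4 -0.67 ± 0.33 (n = 4), day 7 -0.71 ± 0.41 (n = 4) and day 14 -1.81 ± 0.23 (n = 2). The day 14 mean is 3.51-fold lower than the pool, with a 95% interval of -2.27 to -1.36 on the log2 scale (adjusted p = 9.98e-05). EGR3 also fell at day 1 (adjusted p = 0.0209), day 4 (0.0485) and day 7 (0.0394), while day 2, with 2 tumors, did not pass (0.152). The day 1, 4 and 7 calls stand close to the threshold. Of 35 other settings, the day 1 call was lost in 7 and the day 4 and day 7 calls in 17 each. All 3 were lost with 1 mean per mouse (adjusted p = 0.244, 0.142 and 0.162) and with the left-out array used as labelled (0.0522, 0.812 and 0.0985). The day 14 call held in all 35 other settings, with a log2 ratio between -1.98 and -1.61.

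**Figure D1:**
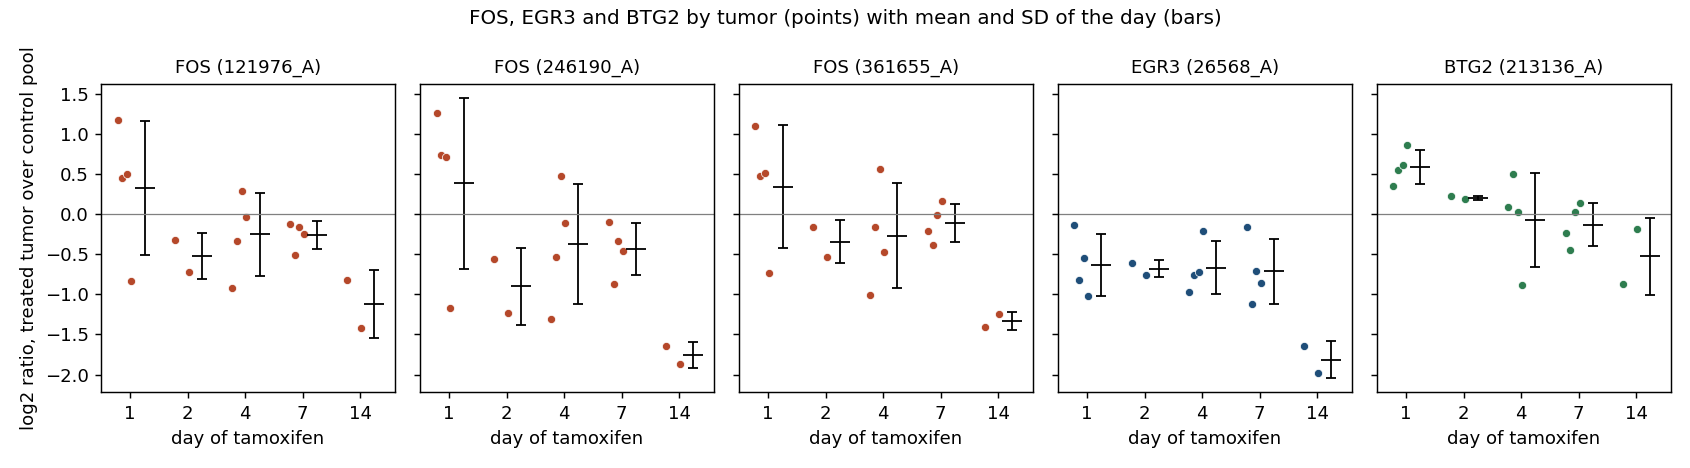
Log2 ratio of tumors with tamoxifen over the E2-only pool (vertical axis) by day of tamoxifen (horizontal axis, evenly spaced) for the 5 probes of FOS, EGR3 and BTG2. Points are tumors and bars give the mean and SD of the day. EGR3 lay below 0 in all 16 tumors and FOS in both tumors of day 14, while BTG2 lay above 0 in all 4 tumors of day 1.

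FOS was lower with tamoxifen at day 14 by all 3 of its probes, and at day 1 its tumors stood on both sides of the pool. By the brightest probe, 121976_A, day 1 tumors had log2 ratios of 1.17, 0.45, 0.50 and -0.83, day 2 tumors -0.32 and -0.72, day 4 tumors -0.93, -0.33, 0.29 and -0.036, day 7 tumors -0.13, -0.52, -0.16 and -0.25, and day 14 tumors -0.82 and -1.42. Day 14 thus overlapped days 1 and 4 by this probe, because 1 tumor of each of those days was about as low. The day means were 0.32 ± 0.84 (SD, n = 4), -0.52 ± 0.28 (n = 2), -0.25 ± 0.52 (n = 4), -0.26 ± 0.18 (n = 4) and -1.12 ± 0.43 (n = 2). At day 14 this is 2.18-fold lower than the pool (adjusted p = 0.0442). Probe 246190_A gave -1.64 and -1.87 at day 14, 3.38-fold lower (adjusted p = 0.0159), and 361655_A gave -1.41 and -1.25, 2.51-fold lower (adjusted p = 0.0181), both below every tumor of the earlier days. No FOS probe passed at day 1, 2, 4 or 7, where the smallest adjusted p was 0.334, for 246190_A at day 2. The probes tracked each other over the 16 tumors with r of 0.98, 0.93 and 0.94, so they repeat 1 measurement. Without either tumor of day 14 the call was lost for all 3 probes (adjusted p 0.162 to 0.525), in a fit that takes the spread of the lone tumor from the other days. The log2 ratios were then -1.42 and -0.82 by 121976_A, -1.87 and -1.64 by 246190_A, and -1.25 and -1.41 by 361655_A. By 121976_A the call was also lost without any 1 of 8 tumors of earlier days (adjusted p 0.0505 to 0.0602), with the mean still at -1.12.

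The tumors of day 1 show how far FOS could differ under 1 treatment. Replicates 3 and 4 came from opposite flanks of 1 mouse, and their log2 ratios by 121976_A were 0.50 and -0.83, a gap of 1.33. The gap was 1.87 by 246190_A and 1.24 by 361655_A. Forward and dye-swap arrays of replicate 4 gave -1.35 and -0.31 by 121976_A, -1.06 and -1.27 by 246190_A, and -1.04 and -0.42 by 361655_A. In the other 3 pairs of tumors that shared a mouse, the gap by 121976_A was 0.72 (day 1 replicates 1 and 2), 0.59 (day 4) and 0.093 (day 7). Without day 1 replicate 4, FOS at day 1 averaged 0.71 and passed (adjusted p = 0.0347), as it did by 246190_A at 0.91 (0.0315), whereas by 361655_A it did not pass in any setting. For EGR3 the same 4 pairs differed by 0.15 to 0.68, and for BTG2 by 0.11 to 0.41.

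BTG2 was higher with tamoxifen at day 1 and moved toward lower values on later days without passing the test there. Day 1 tumors had log2 ratios of 0.34, 0.55, 0.62 and 0.86, day 2 tumors 0.22 and 0.19, day 4 tumors 0.085, 0.49, 0.019 and -0.89, day 7 tumors -0.24, -0.45, 0.026 and 0.14, and day 14 tumors -0.87 and -0.19. All tumors of days 1 and 2 were above 0 and both of day 14 were below it, while days 4 and 7 held both signs. The mean of day 1 was 0.59 ± 0.21 (SD, n = 4), 1.51-fold higher than the pool (adjusted p = 0.0412). These 4 tumors came from 2 mice, and the call was lost with 1 mean per mouse (adjusted p = 0.340), with the replicate block (0.36, adjusted p = 0.134) and without any 1 tumor of day 1 (adjusted p 0.0907 to 0.147). The mean of day 14 was -0.53 ± 0.48 (n = 2, adjusted p = 0.214). Days 2, 4 and 7 averaged 0.20, -0.072 and -0.13 (adjusted p 0.730 to 0.862).

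The day 1 value of BTG2 differed by dye orientation. Forward arrays of day 1 gave 1.07 ± 0.10 and dye-swap arrays 0.11 ± 0.52 (SD, n = 4 each). Tumor by tumor, the forward array gave 1.14, 1.14, 1.08 and 0.92 and the dye swap -0.45, -0.046, 0.15 and 0.80. The orientations of replicate 4 thus lay 0.12 apart and those of the other 3 tumors between 0.93 and 1.59. Over the 15 tumors with both orientations, forward minus dye-swap averaged 0.70 ± 0.69 for BTG2 and was above 0 in 12, and only 5.68% of all probes had a larger mean gap in size (median over all probes 0.25). For EGR3 that mean was -0.22 ± 0.26, with the forward array higher in only 1 tumor, and for the 3 FOS probes it lay between -0.085 and -0.059. Gaps of single tumors ran from -1.05 to 0.41 for FOS by 121976_A. Forward and dye-swap ratios correlated over the 15 tumors with r = 0.38 for BTG2, against 0.87 for EGR3 and 0.83 to 0.95 for FOS. With forward arrays alone BTG2 at day 1 was 1.07, with dye-swap arrays alone 0.11 (adjusted p = 0.862). BTG2 was also the dimmest member, with a median signal over background of 3.80 (range 1.83 to 7.49 over 31 arrays), against 17.5 for EGR3 and 4.56 to 10.9 for FOS. Each day 1 tumor has 1 array of each orientation, so a dye effect that is the same on every array cancels in the mean of 0.59. That mean also passed with a dye term, in a fit of 1 value per array that did not include the mouse. The part of the dim signal in the day 1 value was not tested.

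**Figure D2:**
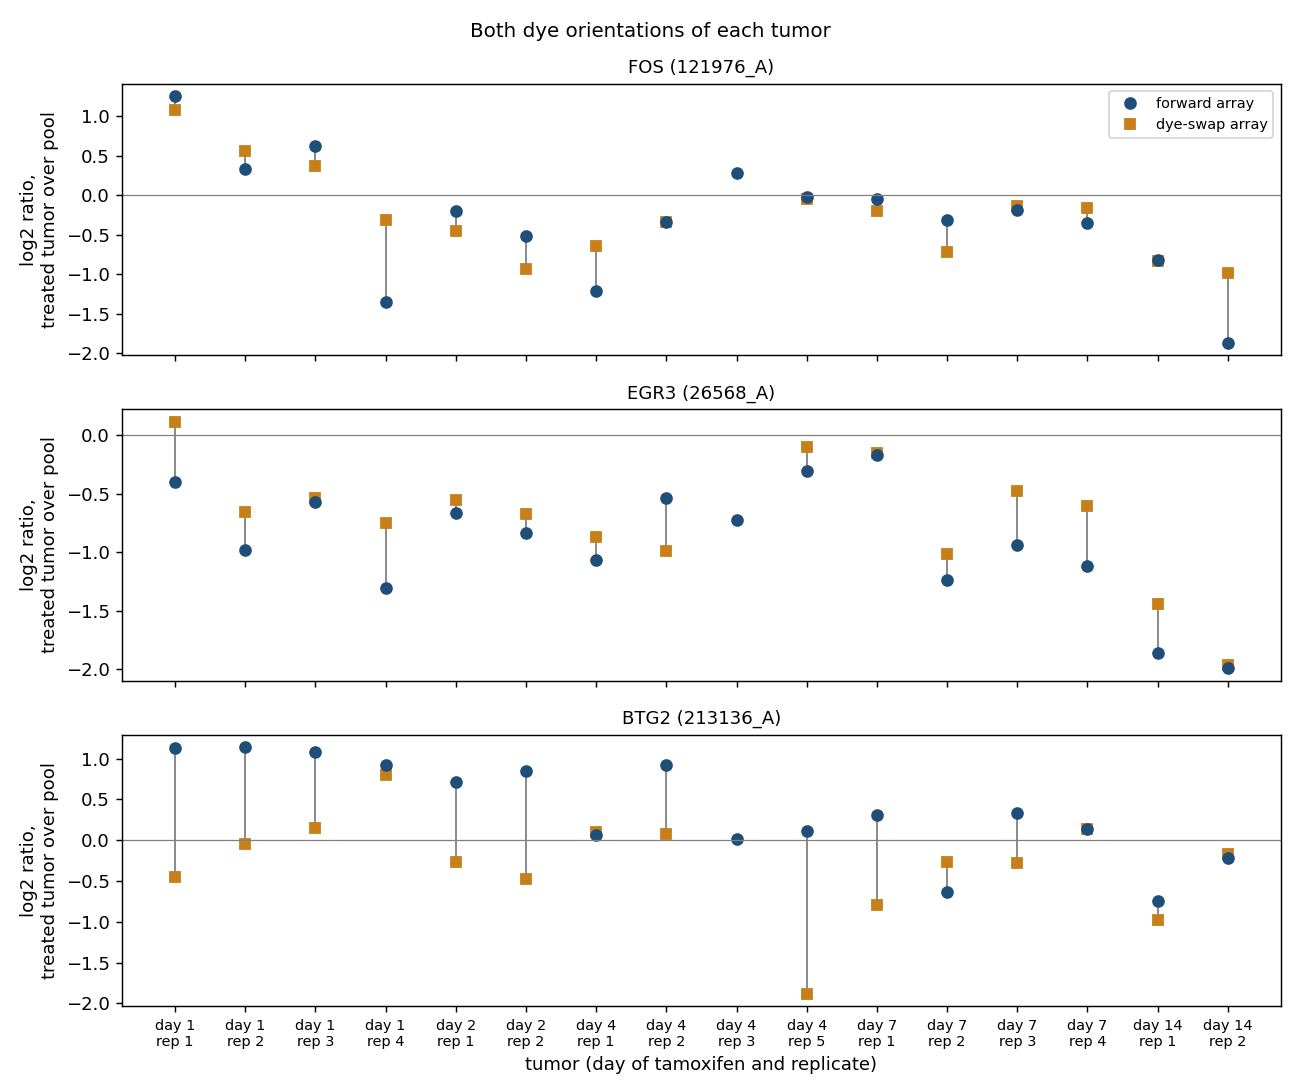
Log2 ratio of tamoxifen-treated tumor over pool (vertical axes) from the forward array (circles) and the dye-swap array (squares) of each tumor (horizontal axis, by day and replicate). Rows are FOS, EGR3 and BTG2 by their brightest probe, and a line joins the orientations of 1 tumor. For BTG2 the forward array was the higher in 12 of 15 tumors, and day 4 replicate 3 has a forward array only.

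The 250 bases before the RefSeq start of FOS and BTG2 (GRCh38.p14, plus strand) are given to set side by side the letters in front of FOS, called lower at day 14, and BTG2, called higher at day 1. FOS lies on chromosome 14 and BTG2 on chromosome 1, and the windows are chr14:75278578-75278827 and chr1:203305269-203305518. Capitals mark matches to the motifs searched on both strands. These were the cAMP response element TGACGTCA and its half-site TGACG, which lies inside it, the AP-1 site TGACTCA, the full estrogen response element (GGTCA, any 3 bases, then TGACC), the estrogen half-site AGGTCA, which can overlap it, the TATA box TATAAA, the CCAAT box, and the CArG box of serum response factor.
FOS: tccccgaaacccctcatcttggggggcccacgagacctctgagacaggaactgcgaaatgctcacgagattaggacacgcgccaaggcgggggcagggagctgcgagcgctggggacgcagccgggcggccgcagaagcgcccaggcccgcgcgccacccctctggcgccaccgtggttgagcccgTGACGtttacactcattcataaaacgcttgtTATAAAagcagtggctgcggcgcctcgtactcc
BTG2: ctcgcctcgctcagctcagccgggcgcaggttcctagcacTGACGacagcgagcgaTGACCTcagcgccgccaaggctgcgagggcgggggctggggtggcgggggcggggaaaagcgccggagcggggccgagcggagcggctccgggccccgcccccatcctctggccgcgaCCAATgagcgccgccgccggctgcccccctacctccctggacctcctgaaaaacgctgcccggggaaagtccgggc
In the FOS window, TGACG stands 64 to 60 bases and TATAAA 33 to 28 bases before the start. In the BTG2 window, TGACG stands 210 to 206 bases, the estrogen half-site 194 to 189 bases (on the minus strand, read as TGACCT) and CCAAT 76 to 72 bases before the start. Of 35116 promoter windows of this length, 21.2% hold TGACG, 10.7% TATAAA, 12.1% AGGTCA and 32.0% CCAAT. The full cAMP element, the AP-1 site, the full estrogen element and the CArG box, found in 1.65%, 4.2%, 0.0399% and 1.16% of windows, are not in these letters. Bases further upstream were not searched, so these genes may hold such sites outside the windows. No window of EGR3 is given.

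Against the calls over the whole array, the members at day 1 were 1 lower (EGR3), where 3.59% of all probes were called lower, and 1 higher (BTG2), where 3.00% were called higher, of 5 probes. At day 2, where 0.141% of all probes were called higher and 0.636% lower, no member was called (2 of 5 probes, EGR3 and FOS 246190_A, had an unadjusted limma p under 0.05). At day 4, with 0.373% of probes called higher and 0.696% lower, and at day 7, with 0.242% higher and 0.494% lower, EGR3 was called lower and the other 4 probes were not called. At day 14, 4 of the 5 member probes were called lower, against 2.96% of all probes, and none higher, against 3.33%. The 3 FOS probes count as 1 gene here, and the way the named probes were chosen makes a high share of calls a property of the list.

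A difference between days does not contain the pool. All 5 probes had lower values at day 14 than at day 1, but none of these differences passed: EGR3 differed by -1.18 (95% interval -1.74 to -0.62, adjusted p = 0.0647), FOS by -1.44 (-2.27 to -0.62, 0.143), -2.14 (-3.22 to -1.07, 0.0872) and -1.67 (-2.50 to -0.84, 0.0862) by its 3 probes, and BTG2 by -1.12 (-1.72 to -0.52, 0.108). Over all probes, 0.293% were called for this difference. For day 14 minus day 7, where 0.0807% of probes were called, the differences were -1.10 for EGR3, -0.86 to -1.32 for FOS and -0.39 for BTG2, with no call here, although 4 of the 5 probes had an unadjusted limma p under 0.05, as all 5 had for day 14 minus day 1. An F-test over the 5 days, which called 0.0807% of probes, gave the members adjusted p values of 0.299 to 0.432. In order of level, neighbouring days did not pass for any member: EGR3 stood between -0.71 and -0.64 on days 1 to 7 and at -1.81 at day 14 (day 14 minus day 7, adjusted p = 0.182), and the BTG2 mean was lower on each later day, in steps of -0.057 to -0.39. The FOS mean of day 2 lay below those of days 4 and 7 by all 3 probes.

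Across the 16 tumors, FOS ran with several genes of hypoxia and glycolysis. Among 251 other named genes, the 4 whose log2 ratios correlated best with FOS (121976_A) were GPI (r = 0.92), a glycolytic isomerase, NDRG1 (0.92), a stress gene induced by low oxygen, the semaphorin SEMA3B (0.91) and LDHA (0.90), which turns pyruvate into lactate. PLOD2, a collagen lysyl hydroxylase, and ADM, the vasodilator adrenomedullin, both induced by low oxygen, came next with 0.88 and 0.86. After the mean of each day was taken away, the correlation was 0.90 for GPI, 0.88 for NDRG1, 0.90 for LDHA and 0.94 for ADM. Of the other genes on the hypoxia and glycolysis list, PPP1R3C had r = 0.75 with FOS (0.71 within days) and STC1 -0.15 (0.015 within days). These are descriptions over tumors that share the pool and in part a mouse. The study also grouped its listed genes by clustering on these same arrays. By the order of its list, ADM, GPI, LDHA, NDRG1, PLOD2, PPP1R3C and SEMA3B stand in the group of FOS. Their likeness to FOS is therefore not independent of that grouping. At the other end stood C20orf3 (r = -0.86) and IGFBP7 (-0.80), whose product is secreted and binds IGFs.

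Of 24 genes listed for hypoxia and glycolysis, 7 had a named probe: ADM, GPI, LDHA, NDRG1, PLOD2, PPP1R3C and STC1. Their median log2 ratio in a tumor was 1.17, 0.75, 0.18 and -0.54 in day 1 replicates 1 to 4, where FOS was 1.17, 0.45, 0.50 and -0.83. At day 4 it was -0.68, -0.13, 0.31 and 0.31 in replicates 1, 2, 3 and 5, against FOS at -0.93, -0.33, 0.29 and -0.036. At day 14 it was -0.51 and -0.91, against FOS at -0.82 and -1.42. The tumor of day 1 with low FOS, replicate 4, was thus also the low one for this list, with ADM at -1.83 against 0.037 in the opposite flank, and so was day 4 replicate 1, with ADM at -1.83. At day 14, PLOD2 at -0.87 (adjusted p = 0.0405) and PPP1R3C at -0.83 (0.0197) fell and STC1, a secreted glycoprotein, rose (1.17, adjusted p = 0.0418), while ADM averaged -0.87, NDRG1 -0.74, LDHA -0.53 and GPI -0.50 without passing (adjusted p 0.177 to 0.412). GPI was the 1 gene of the list called at day 1 (0.69, adjusted p = 0.0193). Over all probes, 3.00% were called higher at day 1, and 3.33% higher and 2.96% lower at day 14. The median of the 7 gene means was 0.17 at day 1 and -0.74 at day 14, beside -0.0050 and 5.84e-05 over all probes. Over all named genes, which the study selected for change, the median was 0.028 at day 1 and -0.25 at day 14. The mean of the tumor medians of the hypoxia list at day 1 was 0.39, and with 1 tumor left out it lay between 0.13 and 0.70. The part of the state that these genes mark in the FOS values was not tested.

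**Figure D3:**
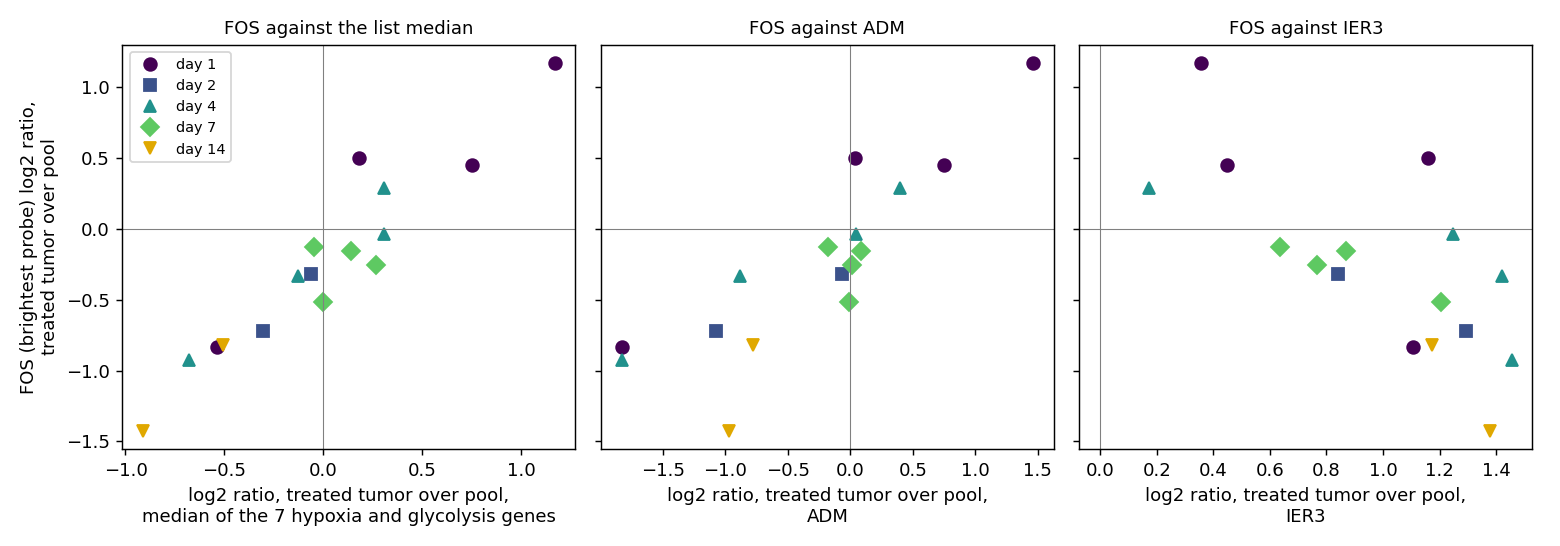
FOS by probe 121976_A (vertical axis) against the median of the 7 hypoxia and glycolysis genes, ADM and IER3 (horizontal axes), all as log2 ratios of tamoxifen-treated tumor over pool, for 16 tumors with symbols by day. FOS tended to be higher where the list and ADM were higher (r with ADM 0.86) and lower where IER3 was higher (r = -0.71), with exceptions among single tumors.

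The genes most like EGR3 were in part also like FOS. Its best correlated genes were AMPH (r = 0.90), which encodes amphiphysin, SIAH2 (0.85), a ubiquitin ligase, CA12 (0.83), a carbonic anhydrase, and MGP (0.83), an inhibitor of calcification, of which SIAH2, CA12 and MGP are on the list of estrogen-induced genes. Without the tumors of day 14 the correlation was 0.80 for AMPH, 0.86 for SIAH2, 0.79 for CA12 and 0.56 for MGP. With FOS, CA12 had r = 0.82 and SIAH2 0.80, and of the hypoxia and glycolysis genes PLOD2 had r = 0.78 with EGR3, GPI 0.71 and LDHA 0.63. The lowest for EGR3 were MYLK (r = -0.90), the myosin light chain kinase, and PIB5PA (-0.89). Of 30 genes listed as estrogen-induced, 22 had a named probe, and 20 of them were called lower at day 14 and none higher, with a list median of -1.09. At day 1 the counts were 8 lower and none higher, with a median of -0.39, so EGR3 at -0.64 and -1.81 lay below the median of that list on both days. Over all probes, 2.96% were called lower at day 14 and 3.59% at day 1, and the named probes were selected for change on these arrays. TFF1 and TFF3, from which the sign of all ratios was partly taken, are on this list. Its direction is therefore not independent of that choice. Among the best correlated genes of BTG2 were ZXDC (r = 0.80) and SCARB1 (0.75), the HDL receptor, and the lowest were TFPI2 (-0.82) and RUNX1 (-0.81).

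The 3 members did not form 1 pattern. FOS and EGR3 correlated with r = 0.74 over the 16 tumors and 0.70 after the mean of each day was taken away. FOS and BTG2 had r = 0.26, and -0.40 within days. By the FOS probe 361655_A the values within days were 0.42 with EGR3 and -0.022 with BTG2, so these correlations depend on the probe, and that of FOS and BTG2 over tumors ranged from 0.026 to 0.47 over other settings. EGR3 and BTG2 had r = 0.18, and -0.54 within days. In day 1 replicate 4, for example, FOS and EGR3 were the lowest of that day (-0.83 and -1.03) and BTG2 the highest (0.86).

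Of 54 genes listed as immediate early, 8 had a named probe, and they moved in opposite directions. Beside the 3 members these are IER3, an early response gene that limits apoptosis, DUSP4, a phosphatase of ERK, PHLDA1, a pleckstrin-like protein, RHOB, a small GTPase, and RGS2, a brake on G protein signalling. At day 1, 3 of the 8 were called higher (IER3, PHLDA1 and BTG2) and 2 lower (EGR3 and RGS2). At day 2 only RGS2 was called, lower, and at days 4 and 7 IER3 was called higher and EGR3 lower. By 259649_A, its other probe, IER3 was called higher at days 1, 7 and 14 but not at day 4 (0.77, adjusted p = 0.0526). At day 14, IER3 and RHOB were higher and EGR3 and FOS lower. The median log2 ratio over the 8 genes was 0.45 for day 1, 0.24 for day 2, 0.037 for day 4, 0.032 for day 7 and 0.075 for day 14, beside -0.0050 to 0.0072 over all probes. Over all named genes the median was -0.25 for day 14 and between -0.047 and 0.028 for the earlier days. Over all probes, 3.00% were called higher and 3.59% lower at day 1, and 3.33% and 2.96% at day 14. These shares were 0.141% and 0.636% at day 2, 0.373% and 0.696% at day 4, and 0.242% and 0.494% at day 7. As for the members, the choice of the named probes makes a high share of calls a property of the list.

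IER3 ran against FOS (r = -0.71 over 16 tumors). Its log2 ratios were 0.36, 0.45, 1.16 and 1.11 at day 1, 0.84 and 1.29 at day 2, 1.45, 1.42, 0.17 and 1.25 at day 4, 0.64, 1.21, 0.87 and 0.77 at day 7, and 1.17 and 1.38 at day 14. It was above 0 in all 16 tumors, and its lowest tumor, day 4 replicate 3, was the highest of that day for FOS. RHOB rose at day 14 with 0.75 and 0.69 (1.65-fold, adjusted p = 0.00349), above all earlier tumors, and it ran against EGR3 (r = -0.82). RGS2 had -0.85, -0.64, -0.61 and -0.84 at day 1 (adjusted p = 0.0213) and -1.62 and -0.66 at day 2 (0.0362), and was not called later, at -0.36, -0.26 and -0.26 on days 4, 7 and 14. PHLDA1 averaged 0.59 at day 1 (adjusted p = 0.0347) and between 0.21 and 0.53 on later days without a call. DUSP4 averaged 0.70 ± 0.11 at day 1 and 0.92 ± 0.18 at day 14 and passed on no day (adjusted p 0.100 to 0.774).

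**Figure D4:**
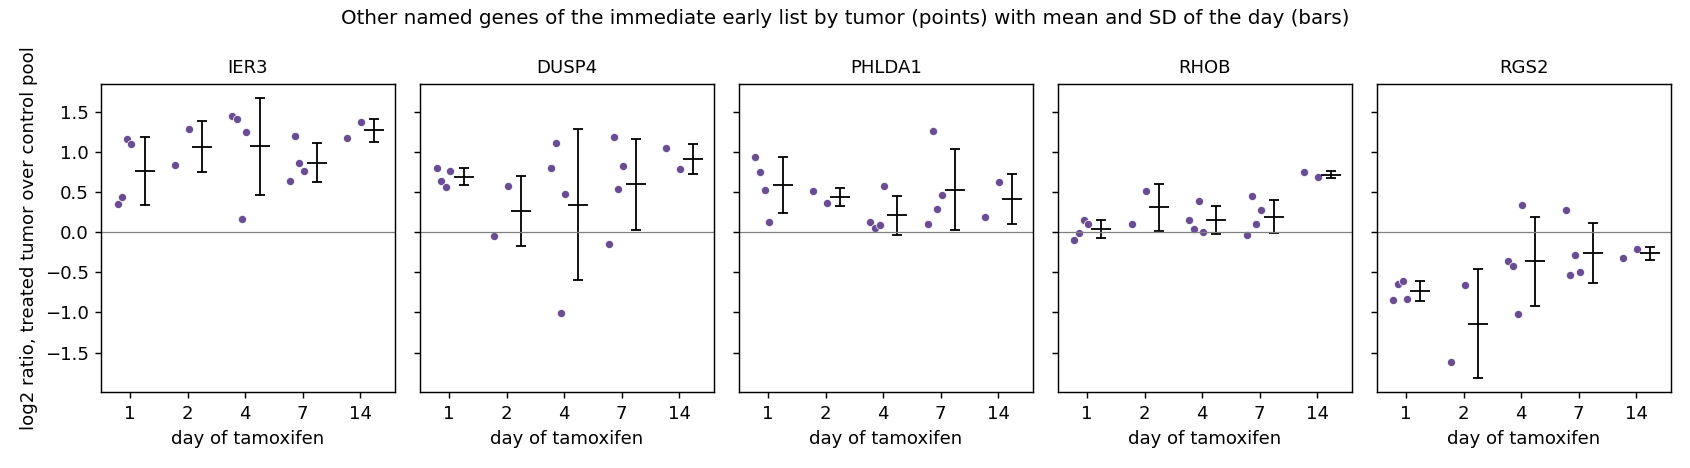
Log2 ratio of tumors with tamoxifen over the E2-only pool (vertical axis) by day of tamoxifen (horizontal axis, evenly spaced) for the 5 other named genes of the immediate early list. Points are tumors and bars give the mean and SD of the day. IER3 lay above 0 in all 16 tumors, and RHOB was highest in both tumors of day 14.

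Genes of growth factor receptors and the ERK pathway, which feed immediate early transcription, also went both ways. Of 36 listed, 10 had a named probe. At day 14, 5 of them were called lower and 3 higher, beside 2.96% and 3.33% of all probes. Lower were GFRA1, a co-receptor for GDNF (-2.53, adjusted p = 7.65e-05), AREG, a ligand of the EGF receptor (-1.09, 0.00522), SHOC2, a scaffold that promotes RAF activation (-1.03, 0.0238), IGF1R, the IGF-1 receptor (-0.72, 0.0187), and IRS1, its adaptor, by both of its probes (-0.58 and -0.65). Higher were FGF18, a fibroblast growth factor (0.73, 0.0138), GRB7, an adaptor of ERBB2 (0.70, 0.00878), and ERBB3 (0.69, 0.0100), and ERBB2 and TIAM1 were not called. At day 1, ERBB2 (0.81, adjusted p = 0.00167) and GRB7 (0.43, 0.0231) were higher and TIAM1, an activator of RAC, lower (-0.70, 0.00162). None was called at day 2, ERBB2 alone at day 4 (0.55, 0.0485, higher) and AREG alone at day 7 (-0.70, 0.0421, lower). The median of the gene means was 0.15 at day 1 and -0.58 at day 14, beside 0.028 and -0.25 over all named genes. At day 1 the shares over all probes were 3.00% higher and 3.59% lower, with 0.373% higher at day 4 and 0.494% lower at day 7. Here too the choice of the named probes makes a high share of calls a property of the list.

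Of 22 genes listed for the p53 response and for BTG and TOB proteins, 3 had a named probe, BTG2, TXNIP and PERP. Over all probes, 3.00% were called higher at day 1, 0.373% at day 4 and 3.33% at day 14. By its brightest probe, 298367_A, TXNIP, which inhibits thioredoxin, was higher at day 1 (0.45, adjusted p = 0.0281), as BTG2 was, at day 4 (0.49, 0.0492) and at day 14 (1.00, 0.00120). By 298452_A, TXNIP was called at day 14 (0.60, 0.0439) but not at day 1 (0.27, 0.213) or day 4 (0.23, 0.351). Its probe 299497_B averaged 0.70 at day 1, and other values of 299497_B and those of 359721_A are not reported here. PERP (148792_A), a desmosome protein induced by p53, was called at day 14 only (0.86, adjusted p = 0.000578), where BTG2 was not called and had the opposite sign. At days 2, 4 and 7 PERP averaged 0.35, 0.34 and 0.30 without passing (adjusted p 0.216, 0.0816 and 0.157).

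These are bulk tumors, in which fewer cells of a type and less RNA per cell cannot be told apart. For fibroblasts and matrix, 4 of 18 listed genes had a named probe, and at day 14, when EGR3 and FOS were lowest, 3 of them were lower: MGP (-1.15, adjusted p = 0.000711), LGALS1 (-0.68, 0.0220) and FN1 (-0.61, 0.0414), with IGFBP7 at 0.72 (0.164). MGP is also on the estrogen-induced list, and 2.96% of all probes were called lower at day 14. FN1 is given by 324061_A, and its other named probe, 324282_A, is not reported here. Human tumor cells and mouse host cells were not separated, so which of them gave these values was not tested. HBG1, a globin, was the 1 gene of 11 erythroid ones with a probe named for a single gene, and averaged -1.11 at day 14 (adjusted p = 0.106). Probes named for several globins together (HBZ, HBA1, HBA2 and HBQ1) were left out of the lists and are not reported here. Luminal markers at day 14 were higher for 6 and lower for 2 of 9 named genes, beside 3.33% and 2.96% of all probes. The lower ones were TFF1 and TFF3, which are also on the estrogen-induced list. For endothelium, leukocytes and keratinocytes no listed gene had a named probe. The part of cell makeup in the values of the 3 members was not tested.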

How the data were processed

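The authors deposited, as intensity, the uncorrected brightness and local background of each spot in each channel. The log2 values of the value table are per-array ratios the authors made in limma (version not given in the sources used here) after background correction, loess and quantile steps. That table served as an alternative, and its columns correlated with the ratios computed here with r of 0.217 to 0.994 (median 0.855).

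The tools were R 4.3.3, limma 3.58.1 and statmod 1.5.0. Each array lost its spots of mark 0 (1 to 393 of them, none of a member). Normexp with an offset of 50, loess and quantile normalization followed. The sign of dye swaps was turned and each tumor was given the mean of its arrays. A fit with 1 mean per day, the mouse as a random effect (duplicateCorrelation 0.0206) and eBayes was tested against 0, and p-values were adjusted by Benjamini-Hochberg over 9912 probes. The fit was tested on simulated data. Replicate numbers do not pair tumors across days. All tests are two-sided, and the number of arrays limits the precision. Median signal over background was 2.29 to 6.59 per array.

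The members and lists were chosen with earlier results of these data known. Gene names come from the gene list of the study, promoters and positions from RefSeq, and the brightest probe stands for a gene in lists and correlations. Named were all member probes, all genes of the immediate early, ERK, p53 and hypoxia lists, up to 4 of other lists by smallest adjusted p, and for each member the 4 most and 2 least correlated genes, of which some for BTG2 are not reported here. PLOD2 and ADM as further correlates of FOS, and HBG1 and IGFBP7 as single list members, were named after their values were seen. Alternatives covered background, normalization, spot marks, dim probes (under 2 times background), blocks, a dye term, orientations, the left-out array, weights, samples in the fit and leaving out each tumor.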

Additional observations from a re-analysis of the deposited data

Results flagged for a closer look

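Chance sets 1 sample apart in about 1 in 20 groups, and here it was 3 of 87 groups of 4 tumors, none of them in a probe of FOS, EGR3 or BTG2. At day 4, IER3 was 0.17 in replicate 3, against 1.25 to 1.45 in the other 3 tumors. That tumor has a forward array only and had the highest FOS of its day. At day 4, PHLDA1 was 0.58 in replicate 5, against 0.055 to 0.13 in the others. At day 7, PLOD2 (310449_A) was -0.36 in replicate 2, against 0.043 to 0.075 in the others, and that tumor had the lowest FOS of day 7 (-0.52).

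In the ERK and p53 lists, GFRA1 and PERP differed between day 14 and day 1 past the limma threshold. GFRA1 averaged -2.53 at day 14 and -0.39 at day 1, a difference of -2.14 (adjusted p = 0.0103). PERP (148792_A) averaged 0.86 at day 14 and -0.037 at day 1, a difference of 0.90 (adjusted p = 0.0143), while its other probe, 357159_B, had a difference of 0.68 that did not pass (adjusted p = 0.126). In the luminal and estrogen-induced lists 3 genes, named after their values were seen, also differed. MUC1 averaged 1.02 at day 14, -0.44 at day 7 and -0.69 at day 1, a difference of 1.71 from day 1 (adjusted p = 0.00430) and of 1.46 from day 7 (0.0341). NELL2 averaged -1.89 at day 14 and -0.16 at day 1 (-1.73, 0.0199), and HSD17B1 -1.44 and -0.047 (-1.40, 0.0132).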

How the results depend on the processing

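Of the 36 other settings, 16 leave out 1 tumor. FOS and BTG2 below are by 121976_A and 213136_A. EGR3 at day 14 passed in all 35 settings that give it. FOS at day 14 was lost with normexp at offset 0 (-1.18, adjusted p = 0.0873), with no normalization or Aquantile between arrays (-1.10, 0.0617 each), with the left-out array as labelled (-1.12, 0.0558), with forward arrays only (-1.34, 0.0624), with the replicate block (-1.13, 0.0843) and in 10 of the 16 fits without 1 tumor. It passed by 246190_A in all settings but those without 1 of the day 14 tumors, and by 361655_A it was also lost with no background correction (-0.74, 0.0508), no normalization or Aquantile between arrays (-1.15, 0.0689) and the replicate block (-1.36, 0.0651). EGR3 at days 4 and 7 was lost with offset 0 (0.0997 and 0.0976), dye-swap arrays only (0.223 and 0.110), the table of the authors (0.110 and 0.213), the tumors of that day alone (0.168 and 0.144) and 9 of the 16 fits without 1 tumor each, at day 4 also with all spots (0.0553) and array weights (0.0723), and at day 7 with the replicate block (0.0855) and the table without the left-out column (0.224), beside the losses given above. EGR3 at day 1 was lost with 1 mean per mouse (-0.64, 0.244), the replicate block (-0.49, 0.0604), the left-out array (-0.64, 0.0522) and dye-swap arrays only (-0.46, 0.188). BTG2 at day 1 was lost with offset 0 (0.72, 0.135), 1 mean per mouse (0.59, 0.340), the replicate block (0.36, 0.134), the left-out array (0.59, 0.0707) and dye-swap arrays only (0.11, 0.862). BTG2 at day 14 passed in the value table of the authors with and without the column of the left-out array (-0.47, 0.0328 and 0.0248).

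The fit with a dye term took 1 value per array, left out the mouse and gave the arrays of a tumor 1 correlation for all probes. Forward and dye-swap ratios of FOS and EGR3 tracked each other closely (r of 0.83 to 0.95 over 15 tumors). For them that fit may count the arrays of 1 tumor as nearly separate samples, and its adjusted p values may be too small. Day 14 minus day 1 passed for FOS with a dye term (-1.44, adjusted p = 0.0106) and array weights (-1.47, 0.0261). It passed for EGR3 with plain subtraction (-1.12, 0.0406), the replicate block (-1.27, 0.0421), a dye term (-1.18, 0.00156), array weights (-1.17, 0.0114) and the table of the authors without the left-out column (-1.16, 0.0385). It passed for BTG2 with forward arrays only (-1.55, 0.0238), the table with and without that column (-1.08, 0.00274 and 0.00152) and array weights (-1.13, 0.0158). Day 14 minus day 7 passed for EGR3 with a dye term (-1.10, 0.00526) and array weights (-1.10, 0.0346) and for FOS 361655_A with a dye term (-1.22, 0.0408). The F-test passed with a dye term for EGR3 (0.00749), FOS 246190_A (0.0148) and 361655_A (0.0226), for 246190_A without day 1 replicate 4 (0.0381), and for BTG2 in the table with and without the left-out column (0.0210 and 0.0114). The mean of the tumor medians of the ERK list at day 14, -0.51, was -0.36 with no background correction and -0.23 with dye-swap arrays only. Values of BTG2 that were not called turned sign at day 2 with dye-swap arrays only (-0.37), at day 4 with the replicate block (0.054), forward arrays only (0.28) and the table without the left-out column (0.076), and at day 7 with forward arrays only (0.042). With 1 tumor left out, BTG2 at day 4 ranged from -0.26 to 0.20, above 0 without day 4 replicate 5. The cause of these changes was not tested.

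Leaving out 1 tumor gave ranges of 0.049 to 0.71 for FOS at day 1, -1.42 to -0.82 for FOS at day 14, -1.83 to -1.14 for its difference between days 14 and 1, -0.80 to -0.50, -1.98 to -1.65 and -1.34 to -1.01 for the same values of EGR3, and 0.50 to 0.67, -0.87 to -0.19 and -1.46 to -0.78 for those of BTG2. The difference of FOS passed without day 1 replicate 4 (-1.83, adjusted p = 0.00822). EGR3 at day 1 was lost without day 1 replicate 2, 3 or 4 (adjusted p 0.0672 to 0.142), BTG2 at day 1 without any 1 tumor of day 1 (0.0907 to 0.147), day 4 replicate 1 (0.0794), day 7 replicate 1 (0.0539) or day 7 replicate 3 (0.0517), and the difference of EGR3 passed without day 1 replicate 4 (0.0332), day 4 replicate 5 (0.0491) or day 7 replicate 1 (0.0412) and that of BTG2 without day 4 replicate 5 (0.0273). The replicate numbers share no animal across days, and same-numbered tumors deviated together no more than others (mean r 0.010 over 24 pairs, against -0.0033 over 76), so the block shows only how the values move.

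The number of probes called varied more. With 1 tumor left out it was 125 to 993 at day 1, 6 to 324 at day 2, 15 to 136 at day 4, 14 to 116 at day 7 and 30 to 730 at day 14, against 653, 77, 106, 73 and 623 with all tumors. Other settings moved it at day 1 to 1052 with no background correction, 1127 with no normalization or Aquantile between arrays, 26 with 1 mean per mouse, 249 with the replicate block, 1272 with a dye term, 367 with the left-out array, 1872 with forward and 212 with dye-swap arrays only, 1265 and 1269 with the table of the authors with and without the left-out column, 1348 with array weights and 1443 with the tumors of that day alone. At day 2 it was 136 with plain subtraction, 9 with the replicate block, 301 with a dye term, 250 with forward arrays only, 35 with array weights and 1 with that day alone. At day 4 it was 170 with no background correction, 39 with offset 0, 69 with all spots, 25 with 1 mean per mouse, 202 with a dye term, 0 with the left-out array, 929 with forward and 23 with dye-swap arrays only, 68 with the table, 35 with array weights and 18 with that day alone. At day 7 it was 136 with no background correction, 11 with offset 0, 14 with 1 mean per mouse, 47 with the replicate block, 250 with a dye term, 1 with the left-out array, 1044 with forward arrays only, 0 with the table with and without the left-out column, 191 with array weights and 3 with that day alone. At day 14 it was 292 with the replicate block, 1055 with a dye term and 1400 with array weights. The limma counts of 0 stand beside 454 probes with an unadjusted p under 0.05 at day 4 and 1016 and 986 at day 7. Days 2 and 14 hold 2 tumors each, so the background shares above are as uncertain as these counts.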

Other observations

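The array left out of all comparisons, the dye swap labelled day 4 replicate 4, gave log2 ratios of 0.29, 0.68 and -0.089 for the FOS probes 121976_A, 246190_A and 361655_A, 0.50 for EGR3 and -0.80 for BTG2. The forward array of the tumor that its source name gives, day 4 replicate 3, gave 0.29, 0.47, 0.57, -0.73 and 0.019. In the value table of the authors, the column of the left-out array holds -0.78, -0.46, -0.13, -0.13 and -0.64 for the same probes. With the dye-swap sign of that column turned back, its correlation across probes with the forward array of day 4 replicate 2 is 0.40.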
